A study of Mus musculus with 2 samples.

Results

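The genes described here encode proteins that act in, or have been linked to, the removal of DNA methylation. They are the dioxygenases Tet1, Tet2 and Tet3, the glycosylase Tdg, and the stress-induced proteins Gadd45a, Gadd45b and Gadd45g. They were chosen by name, and all 7 were found among the 16386 genes listed for both libraries. RNA had been sequenced from sorted iNKT cells (invariant natural killer T cells, a lineage with a semi-invariant T cell receptor) at stage 1 in the thymus, taken from C57BL/6 mice aged 5 weeks. One library came from Uhrf1 KO mice and 1 from wild-type mice; the sources used here do not state how or in which cells Uhrf1 was deleted, or how many animals were pooled. With 1 library per genotype no difference has a replicate check, no p-value was computed, and a difference between the genotypes cannot be told apart from a difference between the 2 preparations.

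Cytosine methylation at CG dinucleotides is copied to the new DNA strand by Dnmt1, which Uhrf1 guides to hemimethylated sites. In the opposite direction, TET enzymes use iron, oxygen and 2-oxoglutarate to oxidise 5-methylcytosine to 5-hydroxymethylcytosine and further to 5-formylcytosine and 5-carboxylcytosine. Tdg cuts out the last 2 forms, and base excision repair then puts back an unmodified cytosine. Gadd45 proteins have no known enzyme activity of their own; they bind other proteins, among them the kinase Map3k4 upstream of p38, and have been linked to repair-based demethylation. In mice, T cells that lack both Tet2 and Tet3 give rise to an expanded iNKT population.

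Uhrf1 itself had an FPKM (fragments per kilobase of transcript, scaled to library size) of 0.626 in the KO on 25 reads and 35.3 in the wild type on 3032 reads. Reads assigned to genes numbered 12189861 in the KO and 26005836 in the wild type, so low genes are measured less precisely in the KO. Cd3e, a chain of the T cell receptor complex, had an FPKM of 271.0 in the KO and 239.8 in the wild type, and Zbtb16, the iNKT lineage factor PLZF, had 41.9 in the KO and 114 in the wild type. Of the 9 T cell and iNKT markers 4 fell and none rose, by the size rule given further on. By that rule 21.3% of all measured genes rose and 23.6% fell. Marker genes of other cells differed as well. Of 8 measured naive T cell genes 6 rose and 1 fell, with a summed FPKM of 1601 in the KO and 492 in the wild type. Of 8 measured myeloid and dendritic genes 6 rose and 2 fell, with sums of 3093 in the KO and 508 in the wild type. Apoe alone had 2676.5 of the KO sum and 246 of the wild-type sum. Adgre1 and Itgax were at 0 in both libraries and S100a8 in the KO. Of 6 measured erythroid genes 5 rose, with sums of 1351 in the KO and 326 in the wild type, Klf1 being among those at 0 in both. All 4 measured stromal and epithelial genes rose, with sums of 78.7 in the KO and 12.2 in the wild type; Krt8 and Pdgfra were at 0 in both and Krt5 and Epcam in the KO. Of 8 double-positive thymocyte genes 5 fell, although the sums were 479 in the KO and 395 in the wild type. Cd8b1, which did not reach the rule, made up most of both sums, at 367 in the KO and 237 in the wild type. The 3 gamma-delta T cell genes fell, with sums of 0.584 in the KO and 118 in the wild type, Blk being among those at 0 in the KO. Of 6 B cell genes 1 was measured and did not reach the rule, with sums of 15.6 in the KO and 17.4 in the wild type; Ms4a1, Pax5 and Ebf1 were among those at 0 in both. The part of these cells in the values below was not tested, and in bulk RNA fewer cells of a type and less RNA per cell cannot be told apart.

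The sequences below are shown for Tdg, whose reads are divided with a near-identical copy, and for Tet1 and Gadd45g, the members that changed by the size rule. Tdg has a processed pseudogene, Gm9855, which the deposited files list with the same locus as Tdg. The Tdg transcript Tdg-201 has 2959 bases and the transcript of Gm9855 has 1194, both from GENCODE M21 on chromosome 10. They aligned over 1194 bases without a gap, and 1185 of these bases (99.2%) were identical. The longest identical run was 756 bases. A stretch of 120 bases is given for each (positions 921 to 1040 of the Tdg transcript and 760 to 879 of the Gm9855 transcript), 5′ to 3′, with the 3 bases that differ in capitals.
Tdg: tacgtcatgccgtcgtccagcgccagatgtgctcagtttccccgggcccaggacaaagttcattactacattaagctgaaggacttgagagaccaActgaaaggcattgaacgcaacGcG
Gm9855: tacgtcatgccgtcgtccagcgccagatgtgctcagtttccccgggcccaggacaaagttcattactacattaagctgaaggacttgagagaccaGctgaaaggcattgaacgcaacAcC

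The 250 bases upstream of the Tet1 and Gadd45g RefSeq start sites (GRCm38.p6, the assembly also called mm10) are printed 5′ to 3′ on the gene's strand, with each CG dinucleotide, the site that Uhrf1 and Dnmt1 act on, in capitals. The first lies at chr10:62887325-62887574 on the minus strand and the second at chr13:51846425-51846674 on the plus strand.
Tet1: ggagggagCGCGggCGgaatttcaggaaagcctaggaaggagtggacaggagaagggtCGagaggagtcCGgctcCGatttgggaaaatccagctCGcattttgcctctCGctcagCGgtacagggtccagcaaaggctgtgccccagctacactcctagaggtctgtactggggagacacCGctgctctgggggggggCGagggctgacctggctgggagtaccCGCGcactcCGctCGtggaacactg
Gadd45g: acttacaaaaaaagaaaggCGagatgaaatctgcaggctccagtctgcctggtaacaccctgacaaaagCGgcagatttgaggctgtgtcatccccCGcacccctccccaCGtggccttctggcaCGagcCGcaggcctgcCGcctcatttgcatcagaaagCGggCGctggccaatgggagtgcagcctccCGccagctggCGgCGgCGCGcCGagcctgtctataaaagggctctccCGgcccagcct

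The Tet1 window held 15 CG dinucleotides and the Gadd45g window 16, against a median of 6 over 32851 RefSeq promoter windows of the same length, of which 27.3% held at least 15 and 25.4% at least 16. All 7 members matched the promoter table, with 11 CG in the Gadd45a window, 17 in that of Tet3, 19 in Tdg, 22 in Gadd45b and 51 in Tet2. At least 1 CG was present in 92.1% of all windows. The motif TATAAA, searched on both strands, was found in the windows of Gadd45b and Gadd45g and in 12.4% of all windows. For Tet1 the table's start lies 7310 bases upstream of the end of the locus in the deposited files, so the window does not adjoin the start that the files use. For Gadd45a the table's start and the end of the locus in the deposited files lie 43245 bases apart. DNA methylation was not measured in these samples.

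With FPKM as deposited the 3 TET genes had higher levels in the KO library, and Tet1 differed by far the most; Tet3 was not higher with the libraries scaled to equal upper quartiles. Tet1 had an FPKM of 1.96 in the KO and 0.196 in the wild type, on 566 reads in the KO and 116 in the wild type. Tet1 is the family member best known from embryonic stem cells and germ cells. By scaled counts (reads adjusted for library size) this was 10.4-fold higher in the KO, with a 95% exact interval of 8.51 to 12.8. Here and below such intervals cover counting error of reads only, and leave out differences between animals or preparations. Amplified reads that carry no molecular identifiers do not each stand for a separate molecule, so the intervals may be too narrow even for counting error. In the files its locus runs from 62804570 to 62880014 on chromosome 10 and is shared with no other gene.

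Tet2 and Tet3, the members best known from blood cells, were nearer to equal in level. Tet2 (chromosome 3, 133463677 to 133544390) had an FPKM of 2.77 in the KO and 1.80 in the wild type (489 reads in the KO and 655 in the wild type), a fold of 1.59 by scaled counts (interval 1.41 to 1.79). Tet3 (chromosome 6, 83362374 to 83441678) had 8.50 in the KO on 1275 reads and 6.95 in the wild type on 2196 reads, a fold of 1.24 (interval 1.16 to 1.33). Tet3 was thus the most abundant TET transcript in each library. The direction of Tet3 was not stable, as its log2 ratio was 0.26 with FPKM as deposited and -0.04 when the libraries were scaled to equal upper quartiles, whereas Tet1 and Tet2 were higher in the KO under every scaling tried.

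Because FPKM is corrected for length, levels of the 3 enzymes can be set side by side within a library. Their sum was 13.2 in the KO and 8.95 in the wild type, a fold of 1.48. Tet1 made up 14.8% of that sum in the KO and 2.20% in the wild type. Tet3 made up 64.3% in the KO and 77.6% in the wild type. The share of Tet2 was 20.9% in the KO and 20.2% in the wild type. Shares of a sum depend on each other. Tet3 had the smaller share in the KO although its FPKM as deposited was 8.50 there and 6.95 in the wild type.

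**Figure D1:**
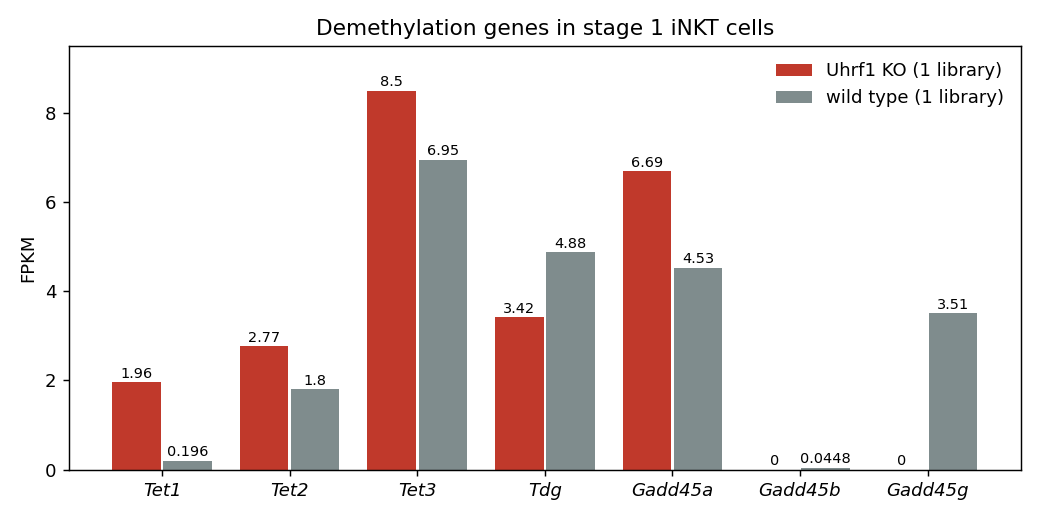
FPKM of the 7 demethylation genes (vertical axis) in the Uhrf1 KO library (left bar of each pair) and the wild-type library (right bar), 1 library each, so no error bar can be drawn. Tet1 stands at 1.96 in the KO and 0.196 in the wild type, Gadd45g at 0 in the KO and 3.51 in the wild type, and Tet3 is the highest member in each library.

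Tdg, the glycosylase that removes the oxidised bases, was lower in the KO when read from its own row. It had an FPKM of 3.42 in the KO and 4.88 in the wild type, a fold of 0.717 by scaled counts (interval 0.599 to 0.853), with its locus at 82629838 to 82690650 on chromosome 10. That locus also holds Glt8d2, at 0 reads in the KO and 1 in the wild type. The value did not reach the size rule. It was also the 1 member whose reads were not whole numbers, at 172.2 in the KO and 511.9 in the wild type. The 4 other members above 0 in the KO and the 6 others in the wild type were whole within 0.01 of a read.

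The pseudogene Gm9855 held the missing fractions. Its row had an FPKM of 24.2 in the KO and 6.37 in the wild type, on 1103.8 reads in the KO and 607.1 in the wild type, a fold of 3.88 by scaled counts (interval 3.51 to 4.29, from rounded reads). Tdg and Gm9855 together came to 1276 whole reads in the KO and 1119 in the wild type, each within 0.01 of a whole number. The deposited values thus divide a fixed number of reads between the gene and its copy, with Tdg given 13.5% in the KO and 45.7% in the wild type. The intervals of both rows leave out any error in that division.

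With the reads of both summed, the difference turned round. The summed FPKM was 27.6 in the KO and 11.2 in the wild type, a fold of 2.43 by scaled counts (interval 2.24 to 2.64) and a log2 ratio of 1.22, against -0.41 for the Tdg row alone. When the libraries were scaled to equal upper quartiles the summed ratio was 0.90 on the log2 scale. RefSeq places the pseudogene, there named Tdg-ps2 and typed as a transcribed pseudogene, elsewhere on chromosome 10, from 42052558 to 42055453. Of the windows of 50 bases in the Gm9855 transcript, 76.5% occur unchanged in a Tdg transcript, and 61.3% of those of 100 bases do. These shares describe the GENCODE transcript of 1194 bases, which is shorter than the RefSeq span. They need not hold for the gene model behind the deposited values. The read length is not given in the sources used here, and neither the division of the reads nor the direction of Tdg can be settled from these files.

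**Figure D2:**
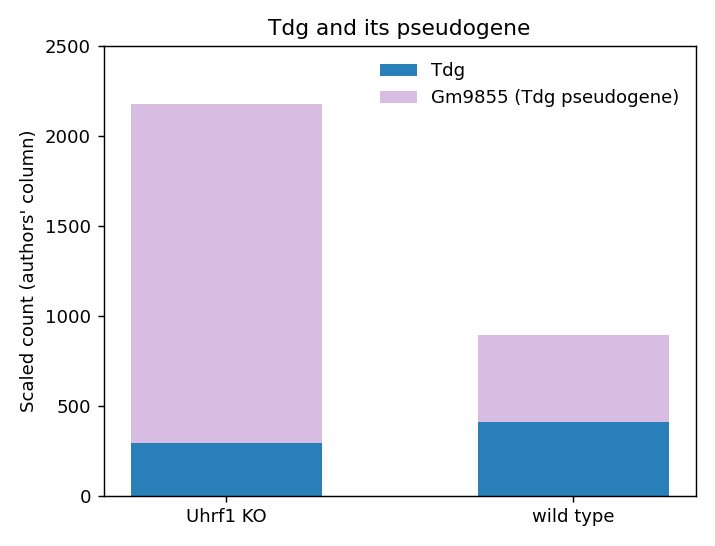
Scaled counts (vertical axis, the authors' column) of Tdg (lower part of each bar) and its pseudogene Gm9855 (upper part) in the Uhrf1 KO library (left) and the wild-type library (right). The sum is larger in the KO, at 2175 against 894 in the wild type, while the Tdg part is smaller there, at 294 against 409 in the wild type.

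The Gadd45 genes did not move together. Gadd45g was listed at an FPKM of 0 in the KO and 3.51 in the wild type, on 0 reads in the KO and 47 in the wild type. Gadd45g encodes a stress-induced protein that activates the p38 and JNK kinases through Map3k4. Equal expression would have given 22.03 reads at the depth of the KO library, and against a floor of 3 reads in that library the level was at least 7.34-fold lower. Its locus, 51846675 to 51848474 on chromosome 13, is shared with no other gene. A value of 0 was not rare at this level: of 1433 genes with a wild-type FPKM of 2.5 to 5, 11.7% were listed at 0 in the KO. Idh1, the cytosolic isocitrate dehydrogenase of most cells, was also listed at 0 in the KO, against 4.84 in the wild type on 444 reads.

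Gadd45a, which p53 induces after DNA damage, had the higher level in the KO. It had an FPKM of 6.69 in the KO and 4.53 in the wild type (109 reads in the KO and 153 in the wild type), a fold of 1.52 (interval 1.18 to 1.96). Its locus in the files, 67035096 to 67080652 on chromosome 6, also holds E230016M11Rik, which was at 0 in both libraries. Gadd45b, an early response gene of NF-kB and TGF-beta signalling, was at the limit of detection, with 0 reads in the KO and 1 in the wild type. No fold is given for it. The family sum was 6.69 in the KO and 8.08 in the wild type, and Gadd45g made up 43.4% of the wild-type sum.

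**Figure D3:**
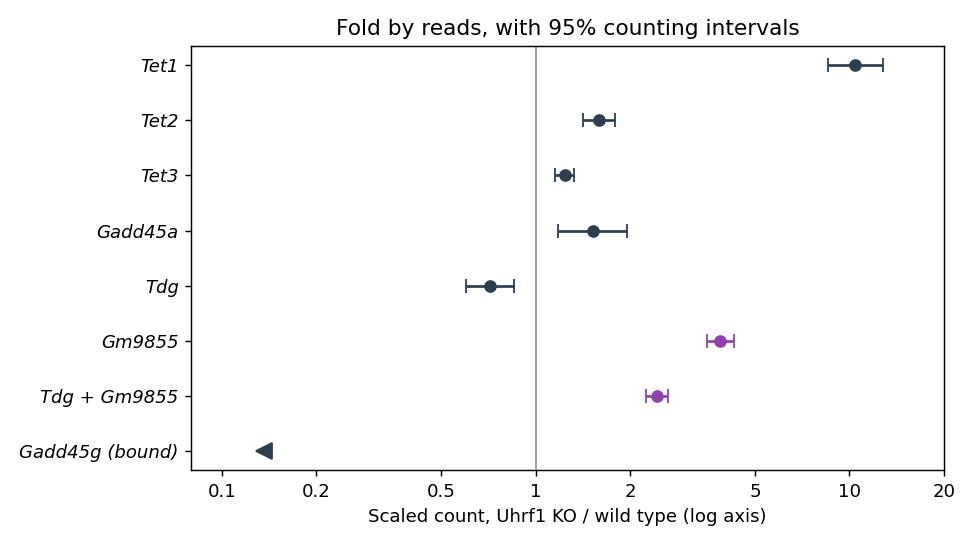
Ratio of scaled counts, Uhrf1 KO over wild type, on a log axis. Points are single ratios with 95% exact counting intervals, and purple points are the pseudogene Gm9855 and its sum with Tdg. The arrowhead is the bound for Gadd45g against the floor of 3 reads, which is not a 95% interval. Tet1 lies at 10.4, Tdg alone at 0.717 and the sum of Tdg and Gm9855 at 2.43.

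Of the 6 members measured, 2 changed in level, where 44.9% of all measured genes did. A change was counted when log2((KO FPKM + 1) / (WT FPKM + 1)) was at least 1 in size. Only genes whose FPKM averaged 1 or more over the libraries were measured, and this scale understates the change of low genes. On it Tet1 rose (1.31) and Gadd45g fell (-2.17), while Tet2 (0.43), Tet3 (0.26), Gadd45a (0.48) and Tdg (-0.41) did not reach the rule. Gadd45b was below the level limit. So 1 of 6 measured members rose and 1 fell, where 21.3% of 9955 measured genes rose and 23.6% fell. The median over the 6 measured members was 0.34, beside -0.0048 over all measured genes, whose SD was 1.58. With Tdg at its sum with Gm9855 (1.22), 2 members rose and 1 fell, and the median was 0.45.

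Tet1 and Gadd45g each passed the level limit only through the library in which they were high, so each had to differ, and both lie where differences were common. At a mean FPKM of 1 to 5, which covers Tet1, Tet2, Tdg and Gadd45g, 61.1% of genes passed the size rule in one direction or the other. At 5 to 25, which covers Tet3 and Gadd45a, 47.3% did. Of 2176 genes with a wild-type FPKM above 0 and below 0.5, as Tet1 had, counted here whether or not they passed the level limit, 17.0% had a ratio of 1 or more. With a pseudocount of 5 in place of 1, neither Tet1 (0.42) nor Gadd45g (-0.77) reached the rule.

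**Figure D4:**
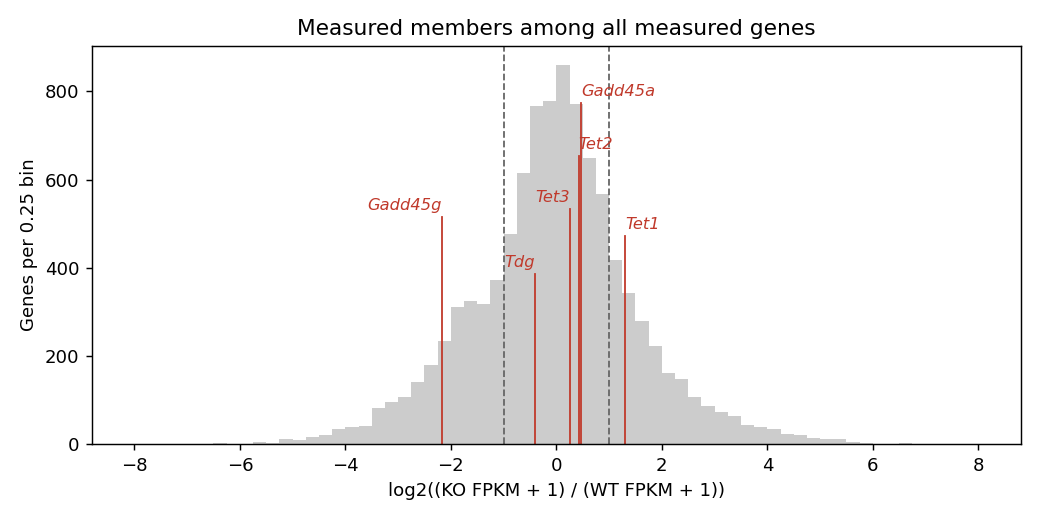
Distribution of log2((KO FPKM + 1) / (WT FPKM + 1)) over 9955 measured genes (grey, genes per bin), with the 6 measured members as red lines of arbitrary height and the size rule of 1 as dashed lines. Gadd45g and Tet1 lie outside the dashed lines and the other 4 members between them.

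In order of level, the KO had Tet3, Gadd45a, Tdg, Tet2 and Tet1, with Gadd45g and Gadd45b at 0, and the wild type had Tet3, Tdg, Gadd45a, Gadd45g, Tet2, Tet1 and Gadd45b. These orders use the Tdg row alone; its sum with Gm9855, at 27.6 in the KO and 11.2 in the wild type, would stand above Tet3 in both. With no spread between samples, neighbours in these orders cannot be separated. The gene nearest to Tet1 over the 2 values of log2(FPKM + 1) was Pdzd9, with 1.92 in the KO and 0.188 in the wild type. Nearest to Gadd45g was Spire2, with 0 in the KO and 3.51 in the wild type. Likeness over 2 libraries says only that the levels are close.

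The other genes of the pathway were taken from 7 lists, of which 89 of 90 names were found and 82 were measured. Of these 12 rose and 20 fell, together 39.0%, near the 44.9% of all measured genes. Uhrf1, the gene deleted in the KO, is among those that fell. With equal upper quartiles 6 rose and 30 fell. Their median log2 ratio was -0.27. Of the genes named next, the calls of Idh1, D2hgdh, Neil3, Smug1, Lig3, Dtl, Ercc4 and Fto were lost with a pseudocount of 5, and with equal upper quartiles those of D2hgdh, Smug1, Egr1 and Fto were lost.

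Genes that supply or restrain TET enzymes changed in both directions, with 3 of 15 measured risen and 4 fallen (median log2 ratio -0.11). Of all measured genes 21.3% rose and 23.6% fell, and the counts of this list and those below stand beside these shares. Idh1 was among those that fell. Idh2, which makes 2-oxoglutarate in mitochondria, fell to an FPKM of 21.9 in the KO, against 53.0 in the wild type. D2hgdh, which removes the TET inhibitor D-2-hydroxyglutarate, rose to 3.61 in the KO, against 0.982 in the wild type. Cxxc5, which binds CG-rich DNA and interacts with Tet2, fell to 36.3 in the KO, against 104.9 in the wild type. Ddb1 and Cul4b, subunits of a ubiquitin ligase that modifies TET proteins, moved apart: Ddb1 fell to 12.1 in the KO, against 38.2 in the wild type, and Cul4b rose to 10.2 in the KO, against 1.24 in the wild type. Ogt, the sugar transferase that binds TET proteins, had 19.5 in the KO and 15.2 in the wild type.

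Base excision repair genes, here other glycosylases and the enzymes that act after a glycosylase, had 4 of 15 measured risen and 2 fallen (median -0.42). The uracil glycosylases moved apart, as Ung fell to 14.2 in the KO, against 39.5 in the wild type, and Smug1 rose to 3.47 in the KO, against 0.912 in the wild type. Neil3, a glycosylase for oxidised bases, rose to 8.85 in the KO, against 2.64 in the wild type. Apex2, a nuclease for abasic sites, rose to 28.2 in the KO, against 4.44 in the wild type. Lig3, the ligase that works with Xrcc1, fell to 0.669 in the KO, against 2.80 in the wild type. Mbd4 (1.99 in the KO and 2.54 in the wild type), the main abasic endonuclease Apex1 (12.5 in the KO and 17.1 in the wild type) and the scaffold Xrcc1 (24.8 in the KO and 44.5 in the wild type) did not reach the rule.

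Of the 8 genes that modify or turn over Tdg, 1 fell and none rose (median -0.12). That gene was Dtl, the substrate receptor of the ligase that degrades Tdg in S phase, with an FPKM of 0.232 in the KO and 4.23 in the wild type.

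Among partners of Gadd45 proteins 2 of 20 measured rose and 5 fell (median -0.41). Map3k4 had 0.862 in the KO and 2.72 in the wild type, which was just short of the rule. Map2k7, the JNK kinase that Gadd45b binds, fell to 13.2 in the KO, against 42.0 in the wild type, and its substrate Mapk8 rose to 8.81 in the KO, against 0.784 in the wild type. The mitotic kinase Cdk1 fell to 0.0627 in the KO, on 3 reads, against 9.95 in the wild type on 992 reads, and the B-type cyclin Ccnb2 fell to 4.84 in the KO, against 23.3 in the wild type. Ercc1 and Ercc4, the subunits of a repair nuclease, fell to 13.2 and 0.289 in the KO, against 43.7 and 3.20 in the wild type. Pcna had 114 in the KO and 137 in the wild type, and Cdkn1a, which encodes p21, had 13.7 in the KO and 6.88 in the wild type.

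Regulators of Gadd45 transcription had 2 of 9 measured risen and 4 fallen (median -0.059). Trp53, which encodes p53, fell to 130 in the KO, against 268 in the wild type, and Rela, the p65 subunit of NF-kB, fell to 7.85 in the KO, against 27.3 in the wild type. Foxo1 rose to 41.7 in the KO, against 6.73 in the wild type, while Foxo4 fell to 0.114 in the KO on 4 reads, against 6.17 in the wild type on 477. Egr1 rose to 46.0 in the KO, against 18.4 in the wild type.

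On the opposing side, of 6 measured genes that write or maintain methylation, only Uhrf1 fell and none rose (median -0.74). Uhrf1 is the gene deleted in the KO, so its fall was set by the design, and the median includes it. Dnmt1 had 43.6 in the KO and 61.1 in the wild type, Dnmt3b had 5.46 in the KO and 11.1 in the wild type, and Dnmt3a had 14.9 in the KO and 8.43 in the wild type. The related AlkB dioxygenases and Fto, which use the same cofactors on other bases, had 1 of 9 risen and 3 fallen (median -0.24). Fto, an RNA demethylase, rose to 11.8 in the KO, against 5.05 in the wild type, and the DNA repair enzymes Alkbh2 and Alkbh3 fell to 1.42 and 0.315 in the KO, on 9 and 4 reads, against 12.9 and 11.2 in the wild type. Alkbh4 fell to 0.183 in the KO, on 3 reads, against 25.6 in the wild type on 940.

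**Figure D5:**
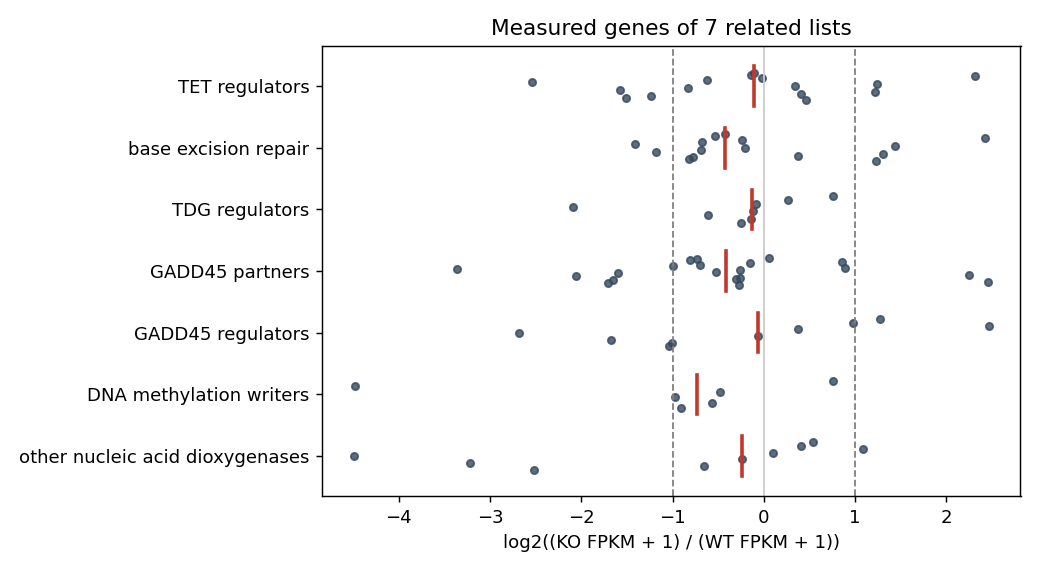
Measured genes of the 7 related lists (points, 1 per gene; vertical offset within a list has no meaning) by log2((KO FPKM + 1) / (WT FPKM + 1)), with each list's median in red and the size rule as dashed lines. Each list holds genes on both sides of 0, and its median lies between 0 and -1.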

How the data were processed

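One mRNA-seq library per genotype (TruSeq RNA kit, per the labels' protocols) was analysed. The submitters' processing notes name TopHat2 2.0.9, Cufflinks 2.1.1 and mm10 without roles. The authors deposited an FPKM value per gene, per the file headers, and a column named a count. That column behaves as a scaled signal: the deposited values are mostly whole multiples of 1.70 in the KO and 0.799 in the wild type, and their totals are close in the libraries. Division by these steps gave reads per gene, whole within 0.01 of a read or the files' rounding for 98.6% of KO and 98.1% of wild-type genes above 0. Folds are ratios of scaled counts with Clopper-Pearson 95% intervals; a library at 0 was set to a floor of 3 reads. No count model was fitted. Locus starts were converted to 1-based positions. List names were matched by symbol, 2 by Entrez identifier.

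The members and lists were chosen with earlier results of these data known. Besides the 7 members, genes were named by a rule: Uhrf1, up to 4 genes per list with the largest change, 11 fixed genes and the nearest gene to a member. Gm9855, E230016M11Rik, D2hgdh, Smug1, Lig3, Map2k7, Ercc1, Ercc4, Trp53, Cd3e and Zbtb16 were added with their values known. Glt8d2 and the other cell type markers named above were also outside the rule. Some genes that the rule names are not reported here. The ratio and interval code was tested on simulated data. Tools were Biopython 1.88 (local alignment of transcripts), statsmodels 0.14.6, scipy 1.17.1, pandas 2.3.3, numpy 2.4.6 and matplotlib 3.10.9 under Python 3.11.15. Promoter sequences are RefSeq's on GRCm38.p6.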

Additional observations from a re-analysis of the deposited data

How the results depend on the processing

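With a pseudocount of 5, 0 members rose and 0 fell, and with a mean FPKM of at least 5 the counts were again 0 and 0, as few members are that abundant. No member rose under equal upper quartiles (0), where Tet1 was below the level limit, or under a size rule of 2 (0). No member fell when over 10 reads were required in the KO and in the wild type (0), a limit added after the data were seen that leaves out Gadd45g by construction. Of the pathway genes, 12 rose, with 7 under a pseudocount of 5, 6 under equal upper quartiles and 5 under a size rule of 2, and 20 fell, with 30 under equal upper quartiles, 9 under a size rule of 2 and 37 under a size rule of 0.5. The share of all measured genes past the rule moved as well. It was 44.9% as deposited, 25.6% with a pseudocount of 5 and 38.1% with a mean FPKM of at least 5. It was 45.2% under equal upper quartiles, 18.9% with a size rule of 2 and 68.1% with a size rule of 0.5. Equal upper quartiles moved the median of all measured genes to -0.32, and higher calls to 34.9% of all calls, against 47.3% as deposited. The log2 ratio of Tdg was reversed, to 1.22, when Gm9855 was added, a step also chosen after the data were seen, and 2 members then rose. Tet1 ran from 0.42 to 2.80 and Gadd45g from -5.17 to -0.77 over 8 alternatives each, and of these alternatives a pseudocount of 5 put both values under 1 in size. No paired analysis was possible because each genotype had 1 library.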
